A study of Chlorocebus sabaeus with 18 samples.

Results

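This comparison sets 3 arrays of COS-7 cells overexpressing TRA2A against 3 control arrays, 6 of the 18 arrays of the study, chosen by their titles. COS-7 cells derive from the kidney of a green monkey (Chlorocebus sabaeus), and their RNA was hybridised to Clariom D Human arrays, whose probes were designed against human transcripts. The remaining 12 arrays fall into 4 groups of 3, of which 3 groups are used here: cells with TRA2A knocked down, cells transfected with the 5′ untranslated region of FMR1 carrying 60 CGG repeats (CGG cells), and CGG cells that also overexpress TRA2A. The titles name GFP for the group overexpressing TRA2A without CGG and for no other group. The controls are labelled with no transfection. All 3 name COS-7 as the cell line, but the condition field of 1 control reads COS-6 and that of another COS-5. No group of cells transfected with GFP or an empty vector alone is used here, so overexpression of TRA2A cannot be told apart from transfection or from handling that only the controls lacked. Nothing in the labels tells whether arrays of a group are separate cultures, so p-values here cover array-to-array spread only, which may be technical. All values are log2 values as the authors deposited them, 1 per transcript cluster (gene) or per exon feature, and a change is the mean of the overexpressing arrays minus the mean of the control arrays on that scale.

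TRA2A is an RNA-binding protein of the Tra2 family, which resembles the serine- and arginine-rich (SR) splicing factors. Tra2 proteins bind purine-rich sequences in exons and promote the inclusion of those exons in the mature RNA, and they also control the inclusion of exons in their own transcripts. Its paralog TRA2B binds similar sequences, and both can act on the same exons. CGG repeat RNA, used in other groups of the study, is known to collect RNA-binding proteins, splicing regulators among them.

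The control arrays stood apart from the rest of the series. On the leading principal component, which held 12.7% of the variance, the overexpressing arrays had scores of 10.7, 36.2 and 26.4, against -79.5, -63.6 and -30.7 for the controls. Scores of the other 12 arrays ran from -10.7 to 34.4. Across transcript clusters, pairs of overexpressing arrays correlated at 0.987 to 0.989, pairs of controls at 0.980 to 0.985, and pairs between both groups at 0.977 to 0.985. Array medians lay between 4.14 and 4.20 in all 18 arrays. The precision of these values is limited by the number of arrays. Control array 1 lay farthest out, and results that depend on a single array are given with the value without it.

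TRA2A (TC0700010472.hg.1) was 18.70, 18.39 and 18.50 in the overexpressing arrays, against 14.65, 14.68 and 14.54 in the control arrays. The groups were far apart, with a 15.0-fold difference (log2 change 3.91 ± 0.19 SE, n = 3 and 3, adjusted p = 6.33e-10 in limma). TRA2A averaged 18.53 in overexpressing cells against 14.57 in CGG cells (log2 change 3.96 ± 0.19) and 11.55 in knockdown cells (6.98 ± 0.19), and both differences passed the test. TRA2B, the paralog, was 16.63, 16.59 and 16.65 in overexpressing cells against 16.33, 16.64 and 16.33 in controls. These values overlapped, and the change of 0.19 ± 0.15 did not pass (adjusted p = 0.61).

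The features of TRA2A did not all share this rise. Of its 38 features on the array (24 exon regions and 14 exon-exon junctions), 17 were higher in overexpressing cells by 1.60 to 8.56, and the other 21 changed by -0.68 to 0.46. Exon region PSR0700174547 had the largest difference, with 19.43, 19.30 and 19.27 in overexpressing cells against 10.60, 10.71 and 11.01 in controls. Exon region PSR0700174534 was 17.84, 17.58 and 17.54 in overexpressing cells against 11.24, 11.26 and 11.16 in controls. Region PSR0700174525 was 14.52, 15.14 and 15.52 in overexpressing cells against 8.99, 8.45 and 9.25 in controls. None of these 3 regions overlapped between the groups. By comparison, exon region PSR0700174544 was 12.56, 11.95 and 12.11 in overexpressing cells against 12.89, 12.91 and 12.87 in controls, a change of -0.68. Region PSR0700174532 changed by -0.60 and PSR0700174543 by -0.59. All 17 features that were higher with overexpression were lower by more than 1 in knockdown cells than in controls, and so were 9 of the other 21. Region PSR0700174544 is among those 9, at -1.86 with knockdown, whereas PSR0700174532 was at -0.05. After subtraction of the gene value, 3 of the 27 tested TRA2A features were called higher and 11 lower. Features are identified here by array ID, without their place in the transcript.

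**Figure D1:**
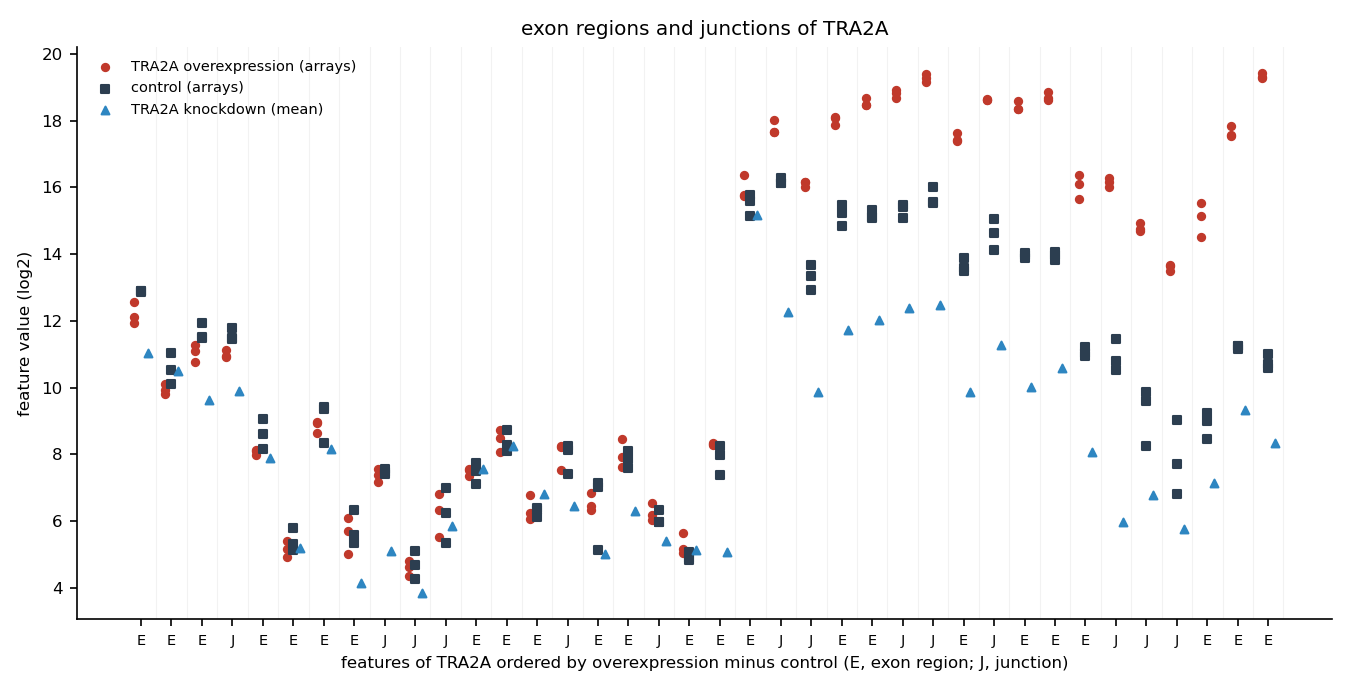
Log2 values of all 38 exon regions (E) and junctions (J) of TRA2A, ordered by the difference between overexpression and control, with 1 point per array for overexpression (red) and control (dark squares) and the mean of the knockdown arrays (blue triangles). The 17 features on the right were higher by 1.60 to 8.56 and all were lower with knockdown than in controls, and the 21 on the left differed by -0.68 to 0.46.

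Across the array, 846 of 67854 tested transcript clusters differed between overexpressing and control cells at an adjusted p under 0.05 (called; 1.25%), of which 644 were higher (0.949%) and 202 lower (0.298%). After quantile normalization the split was 434 higher and 349 lower. A change of at least 2-fold was seen in 291 of the 644 and in 138 of the 202. Among 23836 genes with a single symbol, 517 were called higher (2.17%) and 89 lower (0.373%), and 67.7% of their changes were positive. Their median change was 0.14, against which the gene groups below are read. The groups and their members were chosen with earlier results of these data known. A share above that of all genes is therefore no separate evidence. The 3 overexpressing arrays did not overlap the 3 controls in 12371 transcript clusters (18.2%), 7116 higher (10.5%) and 5255 lower (7.74%). The number of calls rested on single arrays: leaving out control array 1 gave 207, leaving out control array 3 gave 1524, and leaving out overexpressing array 1, 2 or 3 gave 492, 188 and 188. With the variance taken from the 6 compared arrays alone, 33 were called. Because human probes met monkey RNA and no value is per length, levels of different genes are not compared here, and in bulk RNA fewer cells of a type and less RNA per cell cannot be told apart.

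**Figure D2:**
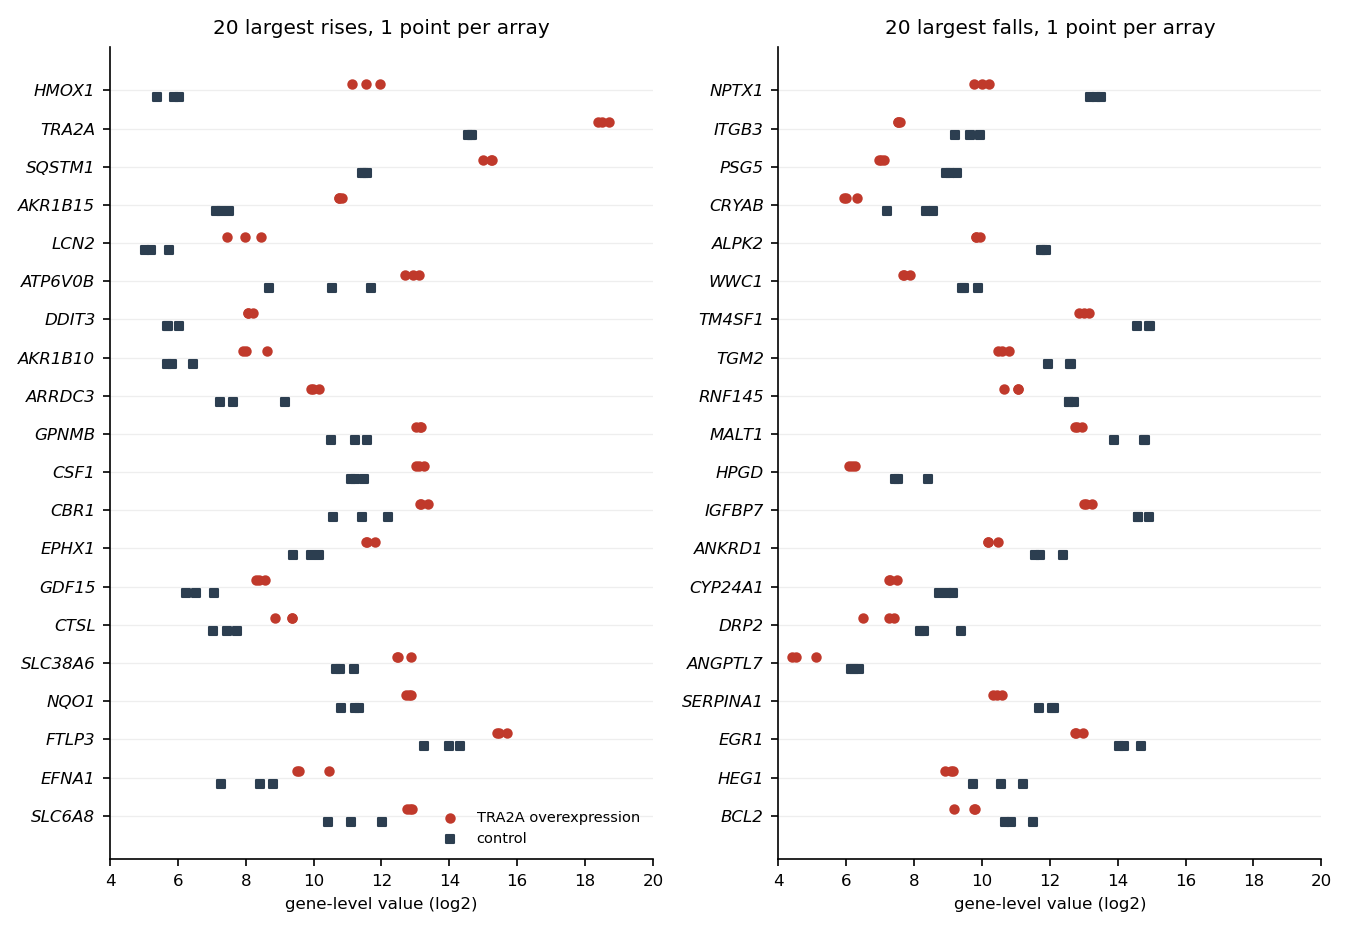
Gene-level log2 values of the 20 largest rises (left) and 20 largest falls (right), with 1 point per array for overexpression (red circles) and control (dark squares). The arrays of the groups do not overlap in any of the 40 genes, which were chosen by that rule, and the 3 controls spread more widely than the overexpressing arrays for genes such as ATP6V0B, ARRDC3 and SLC6A8.

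The largest rise was in genes of the oxidative stress response. HMOX1 (TC2200007204.hg.1), the heme-degrading enzyme heme oxygenase 1, was 11.13, 11.55 and 11.95 in overexpressing cells against 5.37, 6.03 and 5.88 in controls. That is a 55.1-fold difference (log2 change 5.78 ± 0.28, adjusted p = 6.33e-10), and no array of one group came within 5 log2 units of the other group. NQO1, a quinone reductase and a standard target of the transcription factor NRF2, was 12.72, 12.81 and 12.87 in overexpressing cells against 10.82, 11.33 and 11.22 in controls (1.68 ± 0.19, adjusted p = 0.000132). EPHX1, the microsomal epoxide hydrolase, was 11.55, 11.81 and 11.57 against 9.38, 10.17 and 9.91 in controls (1.82 ± 0.19, adjusted p = 5.32e-05). Of 21 measured NRF2 and antioxidant genes, 13 were called higher and none lower, with a median change of 1.05 against 0.14 over all genes. All 21 changes were positive, against 67.7% over all single-symbol genes and 17 of 18 in a list of ribosomal proteins without a call. The count was 9 to 13 with any 1 of the 6 arrays left out.

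The aldo-keto reductases, which reduce reactive aldehydes, were part of that group. AKR1B15 was 10.84, 10.75 and 10.76 in overexpressing cells against 7.51, 7.11 and 7.28 in controls, an 11.2-fold difference (3.48 ± 0.17, adjusted p = 6.33e-10). AKR1B10 was 8.62, 8.02 and 7.91 against 5.68, 5.82 and 6.44 in controls (2.20 ± 0.26, adjusted p = 0.000223). These paralogs are nearly identical and the named junction of AKR1B10 holds the same values as a junction of AKR1B15, so their signals are not independent. CBR1, a carbonyl reductase outside the lists, rose by 1.83 ± 0.28 (13.14, 13.36 and 13.18 against 10.56, 12.18 and 11.44 in controls, adjusted p = 0.0032). SLC7A11, the cystine importer that feeds glutathione synthesis, rose by 1.4 ± 0.21 (12.49, 11.81 and 12.15 against 10.31, 10.86 and 11.08 in controls, adjusted p = 0.0028). Among enzymes that supply NADPH, 3 of 8 were called higher and none lower (median 0.63): TKT by 1.13 ± 0.20, PGD by 0.87 ± 0.17 and IDH1 by 0.79 ± 0.19. None of these 3 was called without control array 1 or without overexpressing array 2 or 3, TKT with an adjusted p of up to 0.0659, PGD of up to 0.109 and IDH1 of up to 0.184. TKT alone was called without overexpressing array 1, and IDH1 was not called without control array 2 either.

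Of 21 genes of iron and heme handling, HMOX1 among them, 6 were called higher and none lower, with a median change of 0.66. LCN2, a secreted protein that binds iron-carrying siderophores, was 7.44, 8.44 and 7.97 in overexpressing cells against 5.03, 5.21 and 5.73 in controls (2.63 ± 0.28, 6.18-fold, adjusted p = 9.35e-05). FTL, the light chain of the iron store ferritin, was 17.39, 17.40 and 17.29 against 16, 16.25 and 16.34 in controls (1.16 ± 0.15, adjusted p = 0.000745). FTLP3, a pseudogene of FTL that may share its probes' targets, rose by 1.67 ± 0.22. ALAS1, the first enzyme of heme synthesis, rose by 1.15 ± 0.22, and its call was lost without control array 1 or overexpressing array 2 or 3 (adjusted p up to 0.0790). The list count was 3 without any of those 3 arrays in turn.

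The integrated stress response, in which the transcription factor ATF4 raises genes of amino acid supply and CHOP raises genes linked to cell death, showed the same direction: 13 of 26 genes were called higher, none lower, and the median change was 0.70. DDIT3, which encodes CHOP, was 8.21, 8.08 and 8.08 in overexpressing cells against 5.70, 5.68 and 6.03 in controls (2.32 ± 0.24, 4.99-fold, adjusted p = 5.32e-05). GDF15, a secreted stress cytokine, was 8.57, 8.38 and 8.30 against 6.53, 6.25 and 7.05 in controls (1.81 ± 0.25, 3.5-fold, adjusted p = 0.00146). PHGDH, the first enzyme of serine synthesis, was 8.91, 9.40 and 9.36 against 7.46, 7.72 and 7.99 in controls (1.5 ± 0.18, adjusted p = 0.000322). Among cytosolic tRNA synthetases, which charge tRNAs with amino acids, 4 of 17 were called higher and none lower (median 0.49): YARS1 for tyrosine (1.28 ± 0.19), CARS1 for cysteine (1.14 ± 0.19), SARS1 for serine (1.09 ± 0.22) and AARS1 for alanine (0.84 ± 0.19). The integrated stress count was 6 without control array 1 and 5 without overexpressing array 2 or 3, and the synthetase count was 2 in 5 of the 6 settings that leave out 1 array, where SARS1 and AARS1 lost their calls (adjusted p up to 0.119 and 0.147).

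Protein folding in the endoplasmic reticulum (ER) was represented by 6 of 26 genes called higher and none lower, with a median change of 0.60. HERPUD1, a membrane protein of ER-associated degradation, was 12.31, 12.34 and 12.21 in overexpressing cells against 10.49, 11.47 and 10.48 in controls (1.47 ± 0.23, adjusted p = 0.0038). DNAJB9, a co-chaperone of the ER lumen, was 11.41, 11.67 and 11.38 against 10.22, 9.99 and 9.92 in controls (1.44 ± 0.18, adjusted p = 0.000505). PDIA4, a disulfide isomerase, rose by 1.32 ± 0.18 and CRELD2, a secreted ER stress protein, by 1.17 ± 0.22. CRELD2 was not called without control array 1 or overexpressing array 2 or 3 (adjusted p up to 0.0879), and 4 members were called in each of those settings.

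Cytosolic chaperones moved in both directions, with 4 of 19 called higher, 1 lower and a median of 0.41. BAG3, a co-chaperone that couples HSP70 to selective autophagy, was 13.01, 13.04 and 13.01 in overexpressing cells against 11.29, 11.39 and 11.96 in controls (1.47 ± 0.18, adjusted p = 0.000322). HSPB8, a small heat shock protein and partner of BAG3, was 8.29, 9.07 and 7.84 against 6.45, 7.21 and 7.07 in controls (1.49 ± 0.25, adjusted p = 0.00534). FKBP4, an HSP90 co-chaperone, rose by 0.99 ± 0.21 but not without control array 1 or 2 or overexpressing array 2 or 3 (adjusted p up to 0.145). CRYAB, the small heat shock protein alpha-B crystallin, went the other way, with 6.0, 6.31 and 5.92 in overexpressing cells against 7.21, 8.55 and 8.35 in controls (-1.96 ± 0.31, adjusted p = 0.00373). The groups did not overlap for any of these 4 chaperones. For CRYAB, one of the largest falls, that follows from its choice among genes without overlap. The number called higher was 2 without control array 1 or overexpressing array 2 or 3, and 7 without control array 3.

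Among autophagy genes, 5 of 22 were called higher and none lower (median 0.38). SQSTM1, the cargo receptor p62 and itself an NRF2 target, was 15.24, 14.98 and 15.27 in overexpressing cells against 11.43, 11.49 and 11.56 in controls (3.67 ± 0.17, 12.7-fold, adjusted p = 4.74e-10). The cargo receptors, TAX1BP1 (1.08 ± 0.23) and OPTN (1.06 ± 0.25), and the protease ATG4A (0.78 ± 0.18) were called in the whole data but lost the call in 3 or more of the 6 settings without 1 array, overexpressing arrays 2 and 3 among them for each gene (adjusted p up to 0.156, 0.171 and 0.189). Leaving out control array 1 gave 2 calls, control array 2 or overexpressing array 1 gave 3, and overexpressing array 2 or 3 gave 1, while SQSTM1 kept its call in all 6 settings.

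Some genes of lysosomes and of the vacuolar proton pump, which acidifies them, were called higher. In the lysosome list 4 of 15 were called higher and none lower (median 0.67), and the count was 4 or 5 without any 1 array other than control array 3, and 8 without that one. CTSD, a protease of the lysosome lumen, was 14.70, 14.63 and 14.83 in overexpressing cells against 12.70, 12.80 and 13.72 in controls (1.65 ± 0.22, adjusted p = 0.000997). GPNMB, a lysosomal and melanosomal glycoprotein, was 13.02, 13.16 and 13.13 against 10.50, 11.23 and 11.57 in controls (2.0 ± 0.22, adjusted p = 0.000101). CTSL, a further lysosomal protease, rose by 1.78 ± 0.30, and LAMP2, a membrane protein of lysosomes, by 1.15 ± 0.18. Of 15 proton pump genes, 4 were called higher and none lower (median 0.59). ATP6V0B, a subunit of the membrane-bound part of the pump, was 12.69, 12.92 and 13.12 in overexpressing cells against 8.68, 11.70 and 10.55 in controls (2.60 ± 0.50, adjusted p = 0.0162), so that the controls differed among themselves by more than the group means did. Without control array 1 its change was 1.79 and was not called. ATP6V0C (1.37 ± 0.24), ATP6AP2 (0.86 ± 0.20) and ATP6AP1 (0.81 ± 0.17) lost their calls without overexpressing array 2, ATP6AP2 and ATP6AP1 also without control array 1 or overexpressing array 1 or 3 (adjusted p up to 0.216), and the pump count was 1 without control array 1, 2 without overexpressing array 1, 0 without overexpressing array 2 and 1 without overexpressing array 3.

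Among genes of the proteasome, which degrades ubiquitin-tagged proteins, 12 of 32 were called higher and none lower. All 32 changes were positive (0.09 to 1.17, median 0.65), against 67.7% over all single-symbol genes. Positive changes were also frequent in 2 lists with no call, in 17 of 18 ribosomal protein genes and 22 of 26 respiratory chain genes. ADRM1, a ubiquitin receptor of the regulatory particle, was 10.20, 10.74 and 10.48 in overexpressing cells against 9.39, 9.20 and 9.31 in controls (1.17 ± 0.20, adjusted p = 0.0059). PSMC4, an ATPase of the same particle, was 15.03, 15.41 and 14.97 against 13.81, 14.16 and 14.15 in controls (1.10 ± 0.17, adjusted p = 0.00334). In 26 of the 32 genes all overexpressing arrays were above all controls, against 10.5% of all tested clusters, many of which have no gene symbol. The count of calls was 3 without control array 1, 3 without overexpressing array 2 and 4 without overexpressing array 3, among which PSMD3 (0.94 ± 0.17) and PSMC6 (0.94 ± 0.22) were no longer called (adjusted p up to 0.0772 and 0.215). PSMC6 was called in the data without control array 2 only.

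Cholesterol synthesis genes had 5 of 20 members called higher and none lower, with a median of 0.64. TMEM97, a sterol-regulated membrane protein, was 11.88, 12.44 and 12.31 in overexpressing cells against 10.27, 10.34 and 11.18 in controls (1.61 ± 0.23, adjusted p = 0.00167). HMGCS1, the synthase upstream of the rate-limiting reductase, was 13.02, 12.83 and 13.24 against 11.69, 11.91 and 11.77 in controls (1.24 ± 0.22, adjusted p = 0.00846). INSIG1, which retains the sterol sensor in the ER, rose by 1.21 ± 0.20, and EBP, a sterol isomerase, by 0.84 ± 0.19. The count was 3 without control array 1 or overexpressing array 2, and 2 without overexpressing array 3, where HMGCS1 had an adjusted p of 0.0577, and EBP was called in the data without control array 3 only (adjusted p up to 0.158 otherwise).

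Smaller numbers of calls fell in other groups. Among p53 targets, 3 of 18 were called higher (median 0.30): the oxidoreductase TP53I3 by 1.42 ± 0.19, the cell-cycle inhibitor CDKN1A by 1.09 ± 0.21 and TP53INP1 by 0.99 ± 0.21. TP53I3 kept its call whichever array was left out, and CDKN1A lost its call without control array 1 or overexpressing array 2 or 3 (adjusted p up to 0.106), and TP53INP1 was called in the data without control array 3 only (adjusted p up to 0.110 otherwise). In the list of hypoxia and glycolysis genes 4 of 25 were called higher (median 0.45), NDRG1, HK1, SLC2A1 and ALDOA, by 0.60 to 1.08, and none of the 25 without control array 1 or overexpressing array 2 or 3, with 1 without control array 2 and 2 without overexpressing array 1. In the inflammatory list, CSF1, the macrophage growth factor, was 13.12, 13.03 and 13.24 in overexpressing cells against 11.11, 11.50 and 11.22 in controls (1.85 ± 0.19, adjusted p = 4.82e-05), and NFKBIA, the inhibitor of NF-kB, rose by 1.08 ± 0.21, whereas MALT1 and IL6 were lower. Among interferon-related genes 1 of 26 was called, the transcription factor IRF1 (6.65, 6.63 and 6.80 in overexpressing cells against 5.30, 5.28 and 5.79 in controls, 1.24 ± 0.17, adjusted p = 0.00116), and 2 were called without control array 1 or 3. NFKBIA was not called without control array 1 or overexpressing array 2 or 3 (adjusted p up to 0.0910).

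Transporters, signalling proteins and a trafficking adaptor completed the 20 largest rises. ARRDC3, an alpha-arrestin that targets membrane receptors for degradation, was 9.93, 9.99 and 10.15 in overexpressing cells against 7.61, 7.23 and 9.15 in controls (2.03 ± 0.35, adjusted p = 0.00752, and 0.0547 without control array 1). SLC38A6, a solute carrier of the amino acid transporter family SLC38, was 12.86, 12.50 and 12.47 against 10.67, 11.18 and 10.77 in controls (1.74 ± 0.18). SLC6A8, the creatine transporter, was 12.74, 12.85 and 12.90 against 10.42, 11.09 and 12.02 in controls (1.65 ± 0.28). For SLC6A8 the controls again spread over more than 1 log2 unit. Of 8 alpha-arrestins, ARRDC3 was the 1 called gene (median 0.40). EFNA1, a membrane-bound ephrin ligand, rose by 1.67 ± 0.37 (adjusted p = 0.0295), and its call held only in the data without control array 3 (adjusted p up to 0.142 otherwise).

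The called falls were fewer than the rises, and the largest was in a secreted protein. NPTX1, a secreted neuronal pentraxin, was 9.77, 10.01 and 10.22 in overexpressing cells against 13.19, 13.36 and 13.52 in controls (-3.36 ± 0.17, 10.2-fold lower, adjusted p = 1.27e-09). Of 21 integrin and adhesion genes, 5 were called lower and none higher, against 0.373% of all genes, with a median of -0.06. The members of this list were chosen with earlier results of these data known, so its share is no separate evidence. ITGB3, the integrin beta 3 chain that binds fibrinogen and vitronectin, was 7.53, 7.52 and 7.57 against 9.66, 9.19 and 9.94 in controls (-2.06 ± 0.23, 4.16-fold lower, adjusted p = 0.000164). TM4SF1, a tetraspanin-like partner of integrins, was 12.87, 13.15 and 13.02 against 14.56, 14.93 and 14.94 in controls (-1.80 ± 0.16, adjusted p = 9.83e-06). All 3 genes were lower in each overexpressing array than in any control. That follows from their choice, because the largest falls were taken only from genes without overlap. ITGB8, a further integrin beta chain (-1.17 ± 0.22), and CD24, a surface sialoglycoprotein (-1.04 ± 0.20), were called lower too, but neither without control array 1 or overexpressing array 1, ITGB8 also not without overexpressing array 2, and CD24 also not without array 3 (adjusted p up to 0.0790 and 0.0858). The adhesion count was 2 without control array 1 or overexpressing array 1 and 3 without overexpressing array 2 or 3.

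Targets of the mechanosensitive coactivator YAP and contractile genes had 4 of 23 members called lower and none higher (median -0.10). WWC1, the Hippo pathway scaffold KIBRA, was 7.68, 7.87 and 7.71 in overexpressing cells against 9.40, 9.88 and 9.48 in controls (-1.83 ± 0.25, adjusted p = 0.00137). ANKRD1, a standard YAP target, was 10.17, 10.46 and 10.19 against 11.70, 11.56 and 12.38 in controls (-1.61 ± 0.23, adjusted p = 0.00167). CCN2, the connective tissue growth factor, was 12.85, 12.87 and 12.82 against 13.77, 14.17 and 14.53 in controls (-1.31 ± 0.18, adjusted p = 0.00161). These 3 kept their calls whichever array was left out, while the smooth muscle protein CNN1 (-0.94 ± 0.22) was called in the data without control array 2 only (adjusted p up to 0.17 otherwise). In the immediate-early list the transcription factor EGR1 fell by 1.48 ± 0.23 (12.73, 12.78 and 12.98 against 14.17, 14.05 and 14.70 in controls), and KLF10 was called higher by 0.86 ± 0.18 of 23 genes, though not without control array 1 or any of the overexpressing arrays (adjusted p up to 0.131).

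In the matrix and TGF-beta list 4 of 25 genes were called lower and 1 higher (median -0.05). TGM2, a transglutaminase that crosslinks matrix proteins, was 10.46, 10.59 and 10.80 in overexpressing cells against 12.58, 11.93 and 12.63 in controls (-1.76 ± 0.20, 3.39-fold lower, adjusted p = 0.000123). TIMP3, a matrix-bound inhibitor of metalloproteinases, fell by 0.98 ± 0.20 and TGFBI, a TGF-beta-induced matrix protein, by 0.90 ± 0.18, while the secreted inhibitor TIMP1 rose by 1.05 ± 0.22. The calls of TIMP3, TGFBI and TIMP1 were lost without overexpressing array 3 (adjusted p up to 0.0729, 0.0841 and 0.154), those of TIMP3 and TGFBI also without overexpressing array 1, and those of TGFBI and TIMP1 also without control array 1. TIMP1 was not called without overexpressing array 2 either, and the number called lower was 2 without control array 1 and 1 without overexpressing array 1 or 3. BMPR2, a receptor of bone morphogenetic proteins, fell by 1.30 ± 0.23, and the ligand BMP4 was 11.90, 12.31 and 11.96 in overexpressing cells against 12.87, 12.94 and 13.82 in controls (-1.15 ± 0.23). They were the called members of 21 BMP and Wnt genes, whose median was 0.03. Without overexpressing array 2 BMPR2 had an adjusted p of 0.0546, and without array 1 or 3 BMP4 had one of up to 0.0898. The count was 1 without overexpressing array 2 or 3.

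Further falls came from several other families. IL6, the inflammatory cytokine, was 6.87, 6.52 and 6.07 in overexpressing cells against 7.53, 7.99 and 8.07 in controls (-1.38 ± 0.25, adjusted p = 0.0101, and 0.0673 without overexpressing array 3). MALT1, a paracaspase of NF-kB signalling, was 12.79, 12.95 and 12.75 against 14.79, 13.88 and 14.76 in controls (-1.65 ± 0.23). RNF145, an ER-resident ubiquitin ligase that responds to sterols, was 10.66, 11.07 and 11.07 against 12.57, 12.72 and 12.55 in controls (-1.68 ± 0.17). Each of these was lower in every overexpressing array than in any control. For MALT1 and RNF145 that follows from their choice among genes without overlap. RNF145 and, in the other direction, the unfoldase VCP (0.67 ± 0.16) were the called members of 9 ubiquitin and ER membrane genes (median 0.27), and VCP was not called without control array 1 or any overexpressing array (adjusted p up to 0.213). PSG5, a pregnancy-specific glycoprotein whose close relatives may share its probes, fell by 2.05 ± 0.20. ALPK2, an atypical kinase, fell by 1.94 ± 0.20, HPGD, which inactivates prostaglandins, by 1.63 ± 0.21, and CYP24A1, which degrades vitamin D, by 1.61 ± 0.21. Among secreted proteins IGFBP7 fell by 1.61 ± 0.23, ANGPTL7 by 1.56 ± 0.23 and the protease inhibitor SERPINA1 by 1.49 ± 0.18. The membrane proteins DRP2 (-1.57 ± 0.31) and HEG1 (-1.45 ± 0.27) and the anti-apoptotic BCL2 (-1.44 ± 0.28) lost their calls in 2 or 3 settings without 1 array (adjusted p up to 0.0713, 0.0754 and 0.112). DRP2 lost its call without overexpressing array 1 or 3, HEG1 without control array 1 or overexpressing array 2 or 3, and BCL2 without control array 1 or overexpressing array 2.

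Of 28 SR proteins and their kinases TRA2A alone was called, with a median of 0.29 over the list and 9 genes at an unadjusted p under 0.05. TRA2A was also the 1 called gene of a list of 8 Tra2 target genes (median 0.31). In a list of 29 hnRNP and other splicing regulators ESRP1, an epithelial regulator, was called (0.71 ± 0.17), with a median of 0.19 and 7 genes at an unadjusted p under 0.05. Of 33 core spliceosome genes, 4 were called higher (median 0.36): SNRPC of the U1 particle (1.26 ± 0.29), SF3A1 of the U2 particle (0.91 ± 0.21), PRPF19 (0.86 ± 0.19) and PRPF4 (0.85 ± 0.20). In this list 16 of 33 genes had an unadjusted p under 0.05. In 16 of 33 all overexpressing arrays were above all controls, with none below. That share was 10.5% over all 67854 clusters, of which 41567 have no gene symbol. After quantile normalization the list median was 0.19 and 2 genes were called higher. As deposited, SNRPC, SF3A1, PRPF19, PRPF4 and ESRP1 had adjusted p-values of 0.0319 to 0.0464. Each was called in the data without control array 3 only (adjusted p up to 0.209 otherwise). In nonsense-mediated decay SMG8 was called of 15 genes (0.91 ± 0.19), though not without control array 1 or overexpressing array 2 or 3 (adjusted p up to 0.149). Of 18 proteins linked to CGG repeat RNA, the nuclear lamina gene LMNA was called (15.72, 15.62 and 15.63 against 14.49, 14.43 and 14.92 in controls, 1.04 ± 0.17, adjusted p = 0.006).

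Several basic gene groups held few calls or none. No gene was called among 18 ribosomal proteins (median 0.33, 9 at an unadjusted p under 0.05), 26 respiratory chain genes (0.27, 8 such genes) and 10 metallothionein and zinc-handling genes (0.27, 1 such gene). Of 35 replication and mitosis genes the mitotic kinesin KIF20A was called (0.93 ± 0.19), and not without control array 1 or 2 or overexpressing array 2 or 3 (adjusted p up to 0.121). Markers of other cell types had no call in limma among 8 endothelial, 6 leukocyte, 3 erythroid and 8 neuronal genes (0, 1, 2 and 1 at an unadjusted p under 0.05, in that order). Mean levels of the endothelial markers were 4.87 to 5.02 in overexpressing arrays and 4.93 to 5.02 in controls, and those of the neuronal markers 4.76 to 4.83 and 4.59 to 4.89. The leukocyte markers averaged 5.70 to 5.87 in overexpressing arrays and 5.86 to 6.06 in controls, and the erythroid markers 5.81 to 6.12 and 5.37 to 5.74, so the erythroid means did not overlap, and the part of this difference in other results was not tested. The labels give kidney as the tissue source. Of 9 fibroblast markers VIM, the intermediate filament vimentin, was called (16.13, 16.24 and 16.17 against 15.19, 15.66 and 15.65 in controls, 0.68 ± 0.16), and of 10 epithelial markers ESRP1. The fibroblast markers averaged 7.22 to 7.33 in overexpressing arrays and 7.08 to 7.28 in controls, and the epithelial markers 8.77 to 8.88 and 8.59 to 8.78. VIM was not called without control array 1 or any overexpressing array (adjusted p up to 0.211). Over all 39 lists, 121 of 707 measured genes were called, 101 higher and 20 lower, and 58 without control array 1 and 56 or 53 without overexpressing array 2 or 3.

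**Figure D3:**
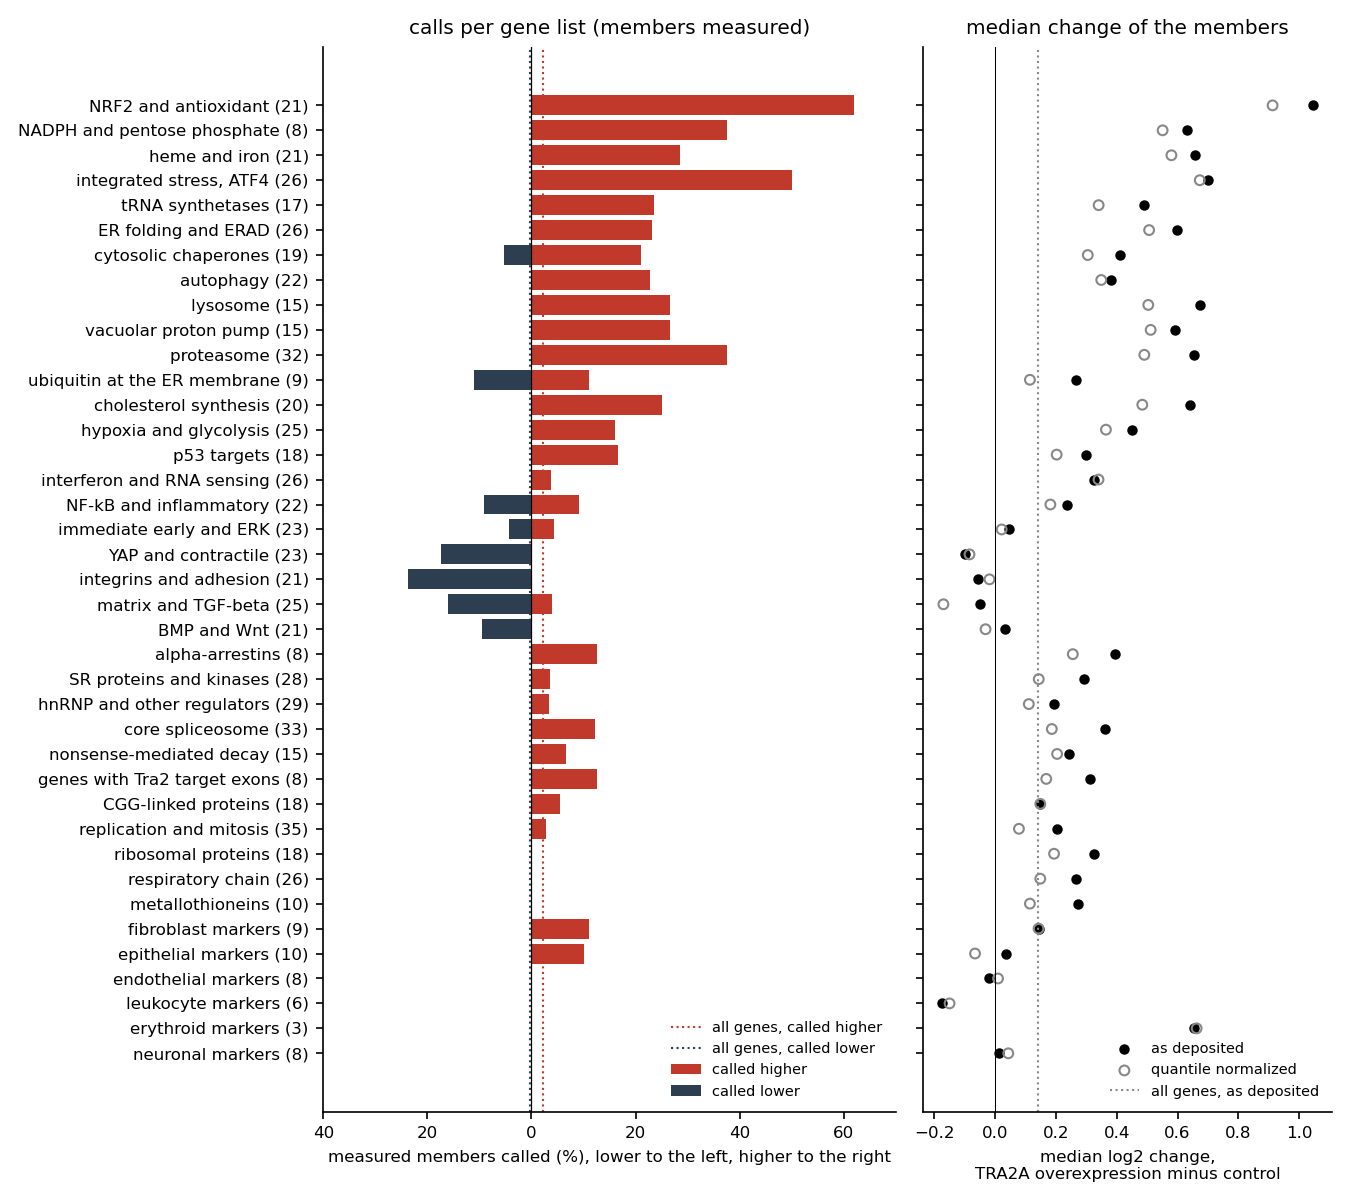
Left, the percentage of measured members of each gene list called higher (red, to the right) or lower (dark, to the left) in overexpressing cells against controls, with dotted lines at 2.17% and 0.373% for all single-symbol genes; right, the median log2 change of each list as deposited (filled) and after quantile normalization (open), with a dotted line at 0.14 for all such genes. The antioxidant list has the highest median (1.05), and the adhesion list the largest percentage called lower (5 of 21). Lists and members were chosen with earlier results of these data known, so shares above the dotted lines are no separate evidence.

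The same overexpressing arrays were next set against transfected cells without TRA2A overexpression. Against CGG cells 34 transcript clusters were called (0.0501%), 7 higher (0.0103%) and 27 lower (0.0398%). Against knockdown cells it was 275 (0.405%), 190 higher (0.28%) and 85 lower (0.125%). These comparisons share the overexpressing arrays with the comparison against controls, so values are given side by side. HMOX1 averaged 11.54 in overexpressing cells against 11.59 in CGG cells and 11.50 in knockdown cells, changes of -0.05 ± 0.28 and 0.05 ± 0.28, where the change against control was 5.78. NPTX1 changed by 0.21 ± 0.17 against CGG cells and 0.07 ± 0.17 against knockdown cells, where it was -3.36 against control. Of the 20 largest rises, 17 were not called against CGG cells and 15 not against knockdown cells, and of the 20 largest falls 18 and 13 were not. The median change of the 20 rises was -0.18 against CGG cells and -0.45 against knockdown cells, and that of the 20 falls -0.41 and -0.42. The list of cholesterol genes had a median of -0.56 against CGG cells and that of antioxidant genes -0.14, beside 0.07 over all genes. The number called against CGG cells was 8 to 19 with any 1 of the 6 arrays left out, and that against knockdown cells 133 to 182. CGG array 1 and knockdown array 3 had been rehybridised, and without both the counts were 10 and 145.

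Some genes were higher in overexpressing cells than in controls and lower than in the other transfected cells. GDF15 averaged 8.42 in overexpressing cells against 10.43 in CGG cells and 10.43 in knockdown cells (-2.01 ± 0.25 for each, adjusted p = 0.0018 and 0.00043). AKR1B15 was lower than in CGG cells by 1.45 ± 0.17 on the log2 scale and than in knockdown cells by 1.21 ± 0.17 (adjusted p = 0.0013 and 0.0014). CSF1 (-1.29 ± 0.19), INSIG1 (-1.56 ± 0.20) and CDKN1A (-1.33 ± 0.21) were called lower than in knockdown cells, with no call against CGG cells. BMP4, which was lower than in controls, was called higher than in knockdown cells by 1.44 ± 0.23, and LCN2 was higher by 1.86 ± 0.28. EGR1 was lower than in knockdown cells by 1.28 ± 0.23 but changed by 0.02 against CGG cells.

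A total of 4 named genes were called in the same direction against controls, CGG cells and knockdown cells, among 7 such transcript clusters in all. TRA2A was the one that was higher. ITGB3 was lower by 2.06 against control, 1.65 against CGG (adjusted p = 0.0085) and 1.80 against knockdown (adjusted p = 0.00064). TGM2 changed by -1.76, -1.36 and -1.17 in the same order, and IL6 by -1.38, -1.63 and -2.02. CRYAB was not among them, with -1.96 against control, -1.66 against CGG (adjusted p = 0.06) and -1.92 against knockdown (adjusted p = 0.0042). These 3 comparisons share the 3 overexpressing arrays, so a deviation of those arrays would appear in each.

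**Figure D4:**
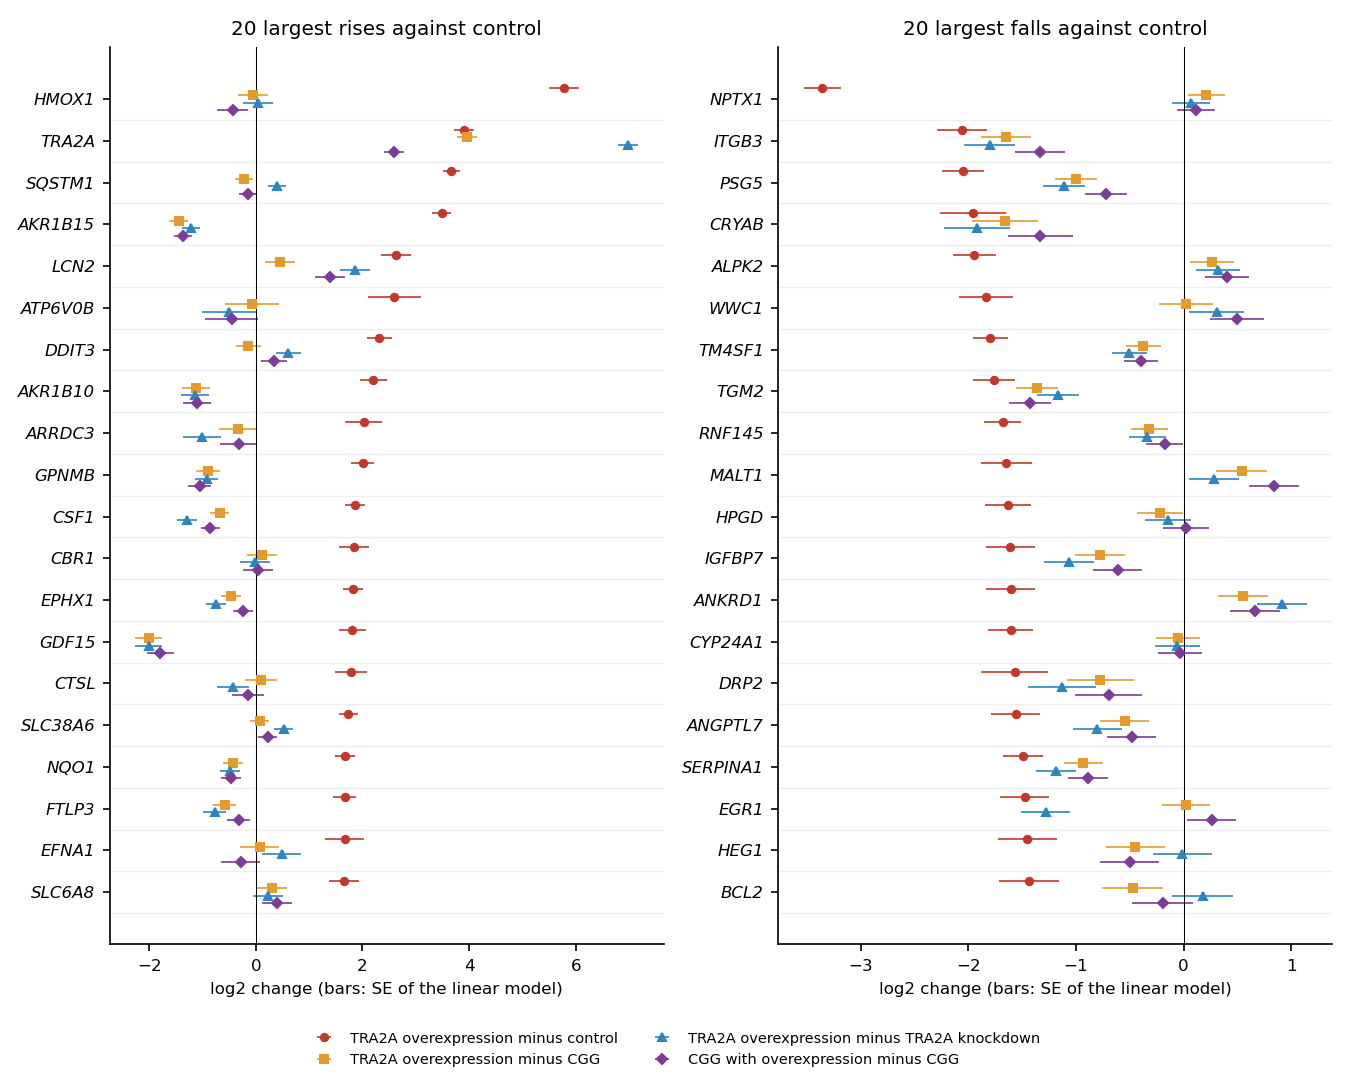
Log2 change (± SE of the linear model, n = 3 and 3) of the 20 largest rises (left) and 20 largest falls (right) against control, for TRA2A overexpression minus control (red), minus CGG (orange) and minus TRA2A knockdown (blue), and for CGG cells with overexpression minus CGG cells (purple). HMOX1 lies at 5.78 against control and between -0.43 and 0.05 in the other 3 comparisons, while TRA2A is above 2.5 in all 4 and ITGB3 and TGM2 are below -1 in all 4. The comparisons share arrays: the same overexpressing arrays enter the red, orange and blue ones, and the same CGG arrays the orange and purple ones.

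Overexpression was also compared in CGG cells, over 6 other arrays. There the comparison is with transfected CGG cells rather than with controls labelled without transfection, and the titles do not name GFP for these cells. There, TRA2A rose by 2.59 ± 0.19 (17.16 against 14.57 in CGG cells, adjusted p = 2.8e-06), and 26 transcript clusters were called (0.0383%), 6 higher (0.00884%) and 20 lower (0.0295%). TGM2 (-1.43 ± 0.20, adjusted p = 0.0068) and ITGB3 (-1.34 ± 0.23, adjusted p = 0.048) were lower here too. The CGG arrays used here also served above as the baseline for overexpressing cells without CGG. A deviation of those CGG arrays would therefore appear in both comparisons with CGG cells. AKR1B15 and GDF15, which were higher than control without CGG, were lower here, by 1.36 ± 0.17 and 1.79 ± 0.25 on the log2 scale (adjusted p = 0.0031 and 0.0081). Of the 20 largest rises, TRA2A alone was called higher, and the median change of the 20 was -0.30. The difference between the change with CGG and the change without it was called in 167 transcript clusters (0.246%), positive in 33 (0.0486%) and negative in 134 (0.197%), among them 13 of the 20 rises and 10 of the 20 falls. Those rises and falls were chosen by their change against control, which enters this difference. Their counts are therefore not read against the share over all clusters. For HMOX1 that difference was -6.22 ± 0.40 and for NPTX1 3.47 ± 0.25. For ITGB3 and TGM2 it was 0.72 and 0.34 and was not called. With 1 array left out at a time the 26 calls ranged from 5, without array 2 of the CGG cells with overexpression, to 166, without their array 3. The 167 ranged from 48, without array 2 of the overexpressing cells, to 277, without array 3 of the CGG cells with overexpression.

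At the exon level, each feature was read relative to its gene, as the feature's log2 value minus the gene's in the same array. Of 223702 tested features (131270 exon regions and 92432 junctions in 13055 genes), 475 were called (0.212%), 136 higher (0.0608%) and 339 lower (0.152%), in 328 genes. They comprised 287 exon regions (0.219%) and 188 junctions (0.203%). Of the 475, 196 lay in genes that were themselves called higher, 154 of them lower than their gene, and 15 in genes called lower. A feature that does not follow a large change of its gene is called by this rule. The exon region PSR2200150626 of HMOX1 was 8.31, 8.65 and 9.0 in overexpressing cells against 7.63, 7.02 and 7.82 in controls, a rise of 1.16, and so had a relative change of -4.62 ± 0.44. Likewise, region PSR0500168430 of SQSTM1 was 11.04, 10.16 and 9.88 against 11, 10.74 and 10.19 in controls, values that overlap, and had a relative change of -3.95 ± 0.37. In TGM2, a gene that fell, junction JUC2000056599 was 13.34, 13.56 and 13.82 against 12.88, 12.59 and 13.33 in controls (relative change 2.40 ± 0.29). Leaving out control array 1 gave 115 exon calls, control array 3 gave 2743, and overexpressing array 1, 2 or 3 gave 288, 113 and 108.

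A single junction stood far above its gene in both sets of overexpressing cells. In MVD, which encodes an enzyme of the mevalonate pathway to cholesterol, junction JUC1600066821 was 15.21, 15.24 and 15.32 in overexpressing cells against 10.90, 9.63 and 9.69 in controls. The gene itself changed by 0.55, and the relative change was 4.63 ± 0.39 (adjusted p = 2.52e-05). In CGG cells with overexpression the junction averaged 13.78, against 9.89 in CGG cells (relative change 4.84, adjusted p = 7.7e-05), and it averaged 10.03 in knockdown cells (5.33 against knockdown, adjusted p = 2.9e-06). It was the only called one of 20 tested MVD features. A junction of SLC25A23, a calcium-dependent mitochondrial carrier, showed the same order, with 9.74, 10.38 and 9.97 in overexpressing cells against 7.49, 5.96 and 7.55 in controls (relative change 2.67 ± 0.45, adjusted p = 0.0223). Over all features, 12 were called in CGG cells with overexpression against CGG cells (0.00536%), 57 against knockdown cells (0.0255%) and 80 for the difference between the changes with and without CGG (0.0358%). The SLC25A23 junction averaged 8.86 in CGG cells with overexpression against 6.50 in CGG cells, where the relative change of 2.98 was not called (adjusted p = 0.06), and 6.66 in knockdown cells (4.14 against knockdown, adjusted p = 0.00084). Without control array 2 or overexpressing array 2 or 3, the SLC25A23 junction was not called against control (adjusted p up to 0.132).

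Features also rose in genes whose own change was small (not called and under 0.5), which held 153 calls among 167948 features (0.0911%), 70 higher (0.0417%) and 83 lower (0.0494%). Exon region PSR1700205423 of TRIM16, a ubiquitin ligase, was 8.77, 8.61 and 8.60 in overexpressing cells against 5.14, 5.45 and 5.75 in controls (relative change 3.02 ± 0.29, adjusted p = 0.000105), while its gene changed by 0.19. Of 11 tested TRIM16 features 6 were called higher, and region PSR1700150526 of the similar gene TRIM16L was 12.59, 12.52 and 12.90 against 8.43, 9.56 and 9.26 in controls (2.57 ± 0.23, gene change 1.01). These near-identical genes may share probe targets. Of 18 tested TRIM16L features 4 were called higher and 1 lower, with a median relative change of -0.81. A junction of HNRNPH1, a splicing regulator, was 9.79, 9.30 and 9.61 against 6.78, 7.66 and 6.88 in controls (2.32 ± 0.21, adjusted p = 6.15e-05). Of 64 tested HNRNPH1 features 1 was called higher and 1 lower, with relative changes of -2.04 to 2.32. Junctions of ELN, the matrix protein elastin (2.93 ± 0.39), of LCP1, an actin-bundling protein (2.28 ± 0.38), of TUB (2.27 ± 0.23), of RRBP1, a ribosome-binding ER protein (2.20 ± 0.29), and of RRP12, a ribosome assembly factor (2.17 ± 0.34), were called higher than their genes as well. NDRG1, called at the gene level, had a junction at 13.77, 13.95 and 14.19 against 9.66, 10.03 and 11.01 in controls (2.66 ± 0.35). In TRIM16 and RRP12 the gene value, which changed by 0.19 and 0.02, did not follow the features. Before subtraction the median change was 1.38 over the 11 TRIM16 features and 0.97 over the 31 RRP12 features. Relative to the median of the gene's features, the TRIM16 region changed by 1.85 (adjusted p = 0.0017). The RRP12 junction changed by 1.27, which was not called (adjusted p = 0.14). The junctions of LCP1 and RRP12 lost their calls in 4 settings without 1 array, control arrays 1 and 2 and overexpressing array 2 among them for each (adjusted p up to 0.126 and 0.0849).

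Among genes that were not themselves called, the falls relative to the gene included features of the pregnancy-specific glycoprotein family, a cluster of closely similar secreted proteins. Exon region PSR1900189672 of PSG1 was 7.17, 7.29 and 7.45 in overexpressing cells against 11.18, 11.42 and 12.08 in controls, and the gene changed by -0.35 (relative change -3.91 ± 0.31, adjusted p = 1.11e-05). A junction listed for PSG2 and for PSG3 with the same values was 8.52, 8.48 and 8.61 against 11.60, 11.51 and 12.25 in controls, with relative changes of -3.81 ± 0.33 and -2.84 ± 0.32. Neither feature overlapped between the groups, and they are not independent because family members share sequence. The gene values did not follow the tested features of these genes. The median relative change was -1.20 over 6 features of PSG1 (highest 0.30), -2.57 over 4 of PSG2 and -1.91 over 4 of PSG3. For PSG2 the gene value changed by 0.56 and the features before subtraction by a median of -2.01. Read relative to the median of the gene's features, the change was -2.19 for the PSG1 region (adjusted p = 0.0027), -1.42 for the PSG2 junction (adjusted p = 0.012) and -0.81 for the PSG3 junction (adjusted p = 0.37), so that the call for PSG3 was lost. The PSG1 region averaged 9.60 in knockdown cells, and the relative change of -2.30 against them was called (adjusted p = 0.0073). It averaged 7.15 in CGG cells with overexpression against 9.30 in CGG cells, where the relative change of -1.80 was not called (adjusted p = 0.12). A junction of STAT4, a transcription factor of cytokine signalling, was 10.24, 11.67 and 11.15 in overexpressing cells against 12.92, 12.48 and 12.64 in controls (-2.08 ± 0.35), and 14 of 40 tested STAT4 features were called lower and none higher. The median relative change of the 40 features was -0.87, and relative to the median of the gene's features the junction changed by -1.56 and was not called (adjusted p = 0.10).

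The remaining named falls had SEs of 0.40 to 0.48. They were features of NDUFA5, a respiratory chain subunit (-2.63 ± 0.40), the adhesion protein CTNNA1 (-2.83 ± 0.48), the mitochondrial ribosomal protein MRPL34 (-2.88 ± 0.45), DDIAS (-2.97 ± 0.48), GET4, a factor that delivers tail-anchored proteins (-3.12 ± 0.47), the splicing factor ZRANB2 (-2.19 ± 0.43), AKT1S1, an inhibitor of the kinase complex mTORC1 (-2.14 ± 0.41), and the pseudogene HERC2P2 (-2.47 ± 0.44). All 8, and the STAT4 junction, lost their calls without control array 1 and without overexpressing array 2 (adjusted p up to 0.208). Relative to the median of the gene's features, those of NDUFA5, MRPL34, ZRANB2, AKT1S1 and HERC2P2 were not called either (adjusted p of 0.061 to 0.12). The CTNNA1 region was 8.06, 7.61 and 7.56 in overexpressing cells against 11.31, 9.68 and 9.83 in controls, so control array 1 was the highest of the 6.

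**Figure D5:**
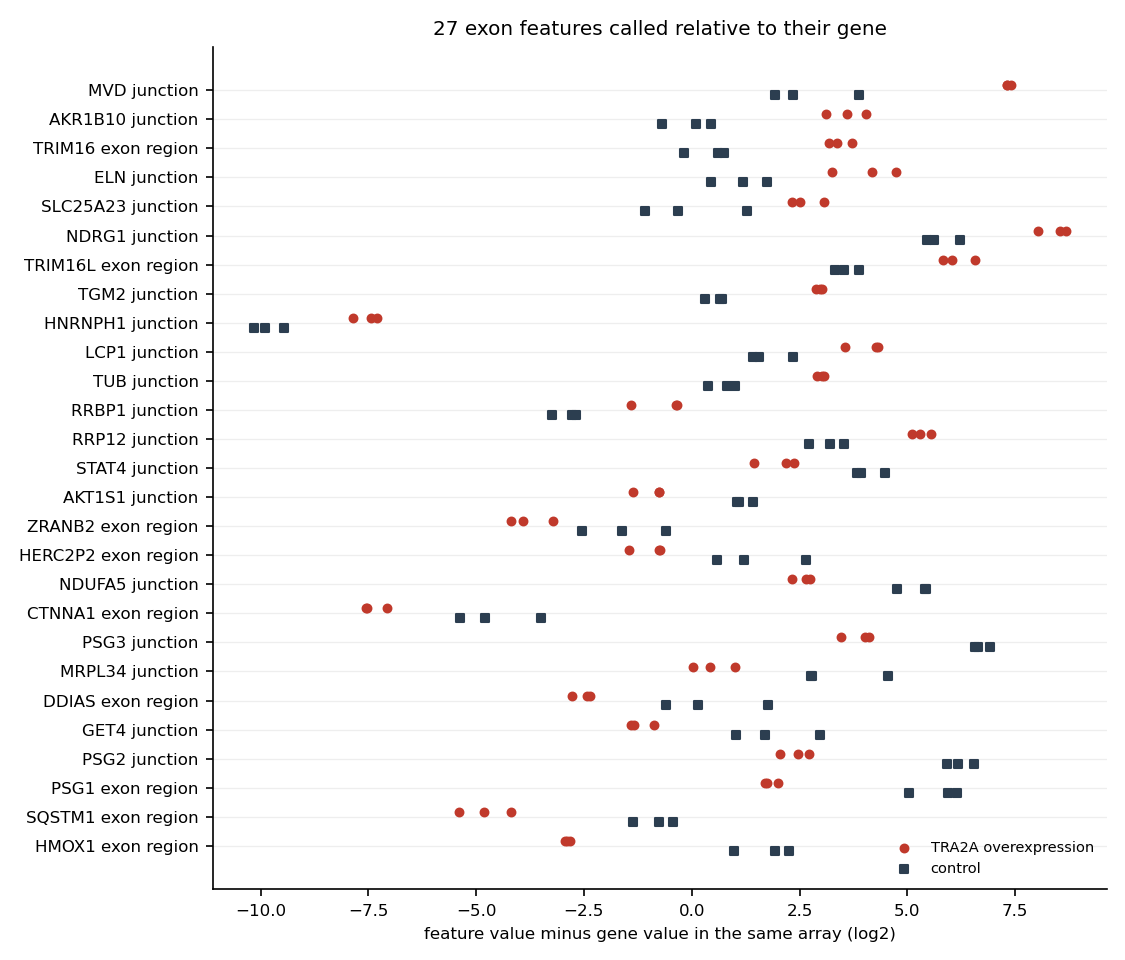
Feature value minus gene value (log2) of the 27 named exon features, with 1 point per array for overexpression (red circles) and control (dark squares). The arrays of the 2 groups do not overlap in these features, and the MVD junction has the largest rise (4.63) and the HMOX1 region the largest fall (-4.62).

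Exons of genes with known Tra2-regulated exons were measured as well. TRA2B, whose own poison exon is a Tra2 target, had 35 tested features and none was called, with relative changes of -1.11 to 0.89 and 4 at an unadjusted p under 0.05. None was called by limma among 33 features of the checkpoint kinase CHEK1 (-1.02 to 0.70, 5 at an unadjusted p under 0.05) or 21 of SMN1, the survival motor neuron gene (-0.91 to 0.57, 2 such features), whose near-identical copy may share probes. None of 45 features of the histone chaperone NASP was called either (-1.71 to 1.17), although 24 of the 45 had an unadjusted p under 0.05. Their median relative change was -0.70, where the gene value changed by 0.72 and the features before subtraction by a median of 0.02. The change of the gene value thus enters all 45 relative changes. MAPT, which encodes tau, HIPK3, a kinase, and CLTB, a clathrin light chain, had 16, 39 and 10 tested features. None was called, and 1, 1 and 2 had an unadjusted p under 0.05. On the array the targeted exons themselves were not identified, because features are named by array ID and coordinates are not used here. In simulated data 4.5% of exon features with an added relative change of 1 were called. The lack of calls therefore does not show that these exons were unchanged. Among all tested features, 28986 had an unadjusted p under 0.05.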

How the data were processed

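RNA of 18 COS-7 arrays in 6 groups of 3 was measured on Clariom D Human arrays; per the labels' protocols, RNA was extracted with Qiagen columns and DNase, and 100 ng of total RNA was amplified and labelled with the Affymetrix Whole Transcript Plus kit. The authors deposited log2 values per transcript cluster and per exon region and junction, made with RMA (robust multi-array average) in the Transcriptome Analysis Console, per the submitters' processing notes; versions are not given in the sources used here. All 18 columns were matched to samples by title (0 unmatched).

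From the deposited log2 values, transcript clusters with a mean above the median of all (4.14), 67854 of 135750, were fitted over all 6 groups with limma 3.58.1 in R 4.3.3 (lmFit and eBayes, Benjamini-Hochberg adjustment over all tested clusters, threshold 0.05). For exon features, the gene value was subtracted within each array, and 223702 features with a mean above 7.46 in genes with at least 3 such features were fitted in the same way. With 3 arrays against 3, a permutation test of a single value cannot go below p = 0.1. Gene symbols are those of the deposited table, with older symbols updated, and clusters with several symbols were not named. The fits were tested on simulated data with added log2 changes of 0.5, 1 and 2, in 66 or 67 clusters or features each. Of these, 0%, 38.8% and 87.9% were called in the right direction for clusters. For exon features it was 0%, 4.5% and 59.1%. A change that is not called is thus not shown to be absent. Figures were drawn with matplotlib 3.10.9.

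Named genes were the 20 largest rises and 20 largest falls among called, non-overlapping genes with 1 symbol, up to 4 called genes per list with the largest change (otherwise the 1 with the smallest p, as a value), up to 8 per direction called alike in 3 comparisons, TRA2A and TRA2B, without clones, uncharacterised loci and small RNAs; of several clusters of a gene, that of highest mean was taken. Named features were up to 8 in each direction over all genes and over genes not called and under 0.5, at most 1 per gene, beside those of TRA2A and of Tra2 targets. Members and lists were chosen with earlier results of these data known. Same-numbered arrays did not pair: their deviations correlated at 0.060, 0.059 and 0.016. Alternatives were filter, quantile normalization, variance model, replicate block, rehybridised arrays and each array left out. The 3 arrays of CGG cells with TRA2A knockdown entered the fit and are not otherwise described.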

Additional observations from a re-analysis of the deposited data

Results flagged for a closer look

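The change with TRA2A overexpression was tested for a difference between CGG cells and cells without CGG, as the interaction term of the limma model over all transcript clusters. It passed for 43 of the 112 named genes, and in all 43 the difference had the sign opposite to the change against control. The named genes were chosen for their change against control, and the 3 control arrays enter that change and this difference alike. Neither the count of 43 nor the shared sign is therefore separate evidence. The baselines differ as well: controls labelled with no transfection for the change without CGG, and transfected cells for the change in CGG cells. An effect of CGG therefore cannot be told apart from that of transfection of the baseline. Values below are the change in CGG cells minus the change without CGG, on the log2 scale.

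Among antioxidant, carbonyl-reducing and iron genes the difference was -6.22 for HMOX1 (-0.43 in CGG cells, 5.78 without CGG, adjusted p = 9.93e-08), -4.84 for AKR1B15, -3.30 for AKR1B10, -2.14 for NQO1, -2.06 for EPHX1, -1.46 for FTL, -1.99 for its pseudogene FTLP3, -1.78 for SLC7A11, -1.70 for TKT, -1.30 for PGD and -1.69 for IDH1. In stress and protein quality genes it was -3.82 for SQSTM1 (-0.15 in CGG cells, 3.67 without CGG, adjusted p = 5.46e-08), -3.60 for GDF15, -1.98 for DDIT3, -1.38 for PHGDH, -1.80 for DNAJB9 and -1.31 for BAG3. For lysosomal and sterol genes the values were -3.05 for GPNMB, -2.34 for CTSD, -2.25 for HMGCS1, -1.85 for INSIG1, -1.62 for TMEM97 and -1.59 for EBP. In p53, inflammatory and interferon genes they were -2.06 for CDKN1A, -1.66 for TP53INP1, -2.70 for CSF1, -1.43 for NFKBIA and -1.34 for IRF1. The transporter SLC38A6 differed by -1.51. TRA2A itself differed by -1.31 (2.59 in CGG cells, 3.91 without CGG, adjusted p = 0.0472), and it rose in both.

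Genes lower than control without CGG had positive differences. NPTX1 differed by 3.47 (0.12 in CGG cells, -3.36 without CGG, adjusted p = 3.76e-07). The values were 2.49 for MALT1, 2.35 for ALPK2, 2.33 for WWC1, 2.27 for ANKRD1, 2.0 for BMP4, 1.74 for EGR1, 1.65 for HPGD, 1.57 for CYP24A1, 1.55 for CD24, 1.51 for RNF145, 1.4 for TIMP3 and 1.4 for TM4SF1.

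Of the 27 named exon features, 7 differed in their change relative to the gene: the AKR1B10 junction by -4.63, the TRIM16L region by -3.75, the TRIM16 region by -3.72, the HNRNPH1 junction by -3.08, the TUB junction by -2.91, the HMOX1 region by 4.10 and the SQSTM1 region by 4.29. The MVD junction, which was higher with overexpression in CGG cells and without CGG, is not among them.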

How the results depend on the processing

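The number of calls moved with the variance estimate and with single arrays, and 3 arrays a group limit the precision. The alternatives for the gene lists other than quantile normalization were chosen after seeing the data. For overexpression against control (846 clusters), 563 were called without a filter, 1891 with a filter at the 75th percentile, 33 with variance from the compared arrays only, 1714 with trended and robust variance, and 188 to 1524 with 1 array left out. Against CGG cells (34) the counts were 21 without a filter, 5 from the compared arrays only, 10 without the rehybridised arrays and 8 to 19 with 1 array left out. Against knockdown cells (275) they were 109 from the compared arrays only, 426 with trended variance, 145 without the rehybridised arrays and 133 to 182 with 1 array left out. In CGG cells (26) they were 16 without a filter, 3 from the compared arrays only, 66 with trended variance, 12 without the rehybridised arrays and 5 to 166 with 1 array left out. The interaction (167) gave 109 without a filter, 326 at the 75th percentile, 53 from the compared arrays only, 297 with trended variance and 48 to 277 with 1 array left out. Of the list genes (121 called), 20 were called from the compared arrays only and 53 to 143 with 1 array left out. Among exon features, overexpression against control (475) gave 35 from the compared arrays only, 75 when only genes not called and under 0.5 were tested, and 108 to 2743 with 1 array left out. In CGG cells (12 features) the counts were 25 relative to the median of a gene's features, 2 from the compared arrays only, 0 in genes not called and under 0.5, and 8 to 41 with 1 array left out. The exon interaction (80) gave 41 at the 75th percentile, 26 from the compared arrays only, 8 in genes not called and under 0.5, and 18 to 156 with 1 array left out. After quantile normalization the medians of the BMP and Wnt list (-0.031, against 0.033 as deposited) and of the epithelial markers (-0.066, against 0.035) changed sign. TRA2A kept its call in every setting (3.76 to 3.98). Of the 112 named genes, 18 lost their call after quantile normalization, 15 without a filter, 77 with variance from the compared arrays only and 3 to 45 with 1 array left out, and none changed direction in these settings. Of the 27 named features, 8 lost their call relative to the median of the gene's features, where the AKR1B10 junction changed by 1.81 (adjusted p = 0.034), against 3.64 relative to the gene value. Where a fit tested fewer arrays or clusters, that is part of its construction; for other settings the cause was not tested.

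Same-numbered arrays shared only a number. With the replicate block, 816 clusters were called against control, 20 against CGG cells, and 381 exon features against control and 43 for the exon interaction.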
